A study of Sus scrofa with 6 samples.

Results

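The genes described here regulate apoptosis, the programmed death of cells: 3 inhibitors of death from the BCL2 family (BCL2, BCL2L1 and MCL1) and 6 promoters of death (the BCL2 family members BAX, BAK1 and BID, the death receptor FAS, and the initiator caspases CASP8 and CASP9). Members were the probes of a porcine Agilent array whose gene name column holds one of these 9 symbols. This gave 14 of the 43603 probes on the array, for 5 of the 9 genes and of the 3459 genes that this column names: MCL1 with 6 probes, CASP8 with 3, BID and FAS with 2 each, and BCL2L1 with 1. BAX and BAK1 were each reached by 1 further probe, through an accession or the probe description, and are given apart from the counts. BCL2 and CASP9 were not analysed here.

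RNA came from the renal cortex of 6 Large White pigs aged 3 months, with 1 array per kidney. In the ischemia group (n = 3) the kidney was clamped and taken out, left under its clamp for 60 min at 37 °C, rinsed through with a cold organ-preserving fluid, University of Wisconsin solution, at 4 °C, and then stored at 4 °C for 24 h before sampling and freezing. In the control group (n = 3, other pigs) the organ was removed, with sampling and freezing at once. Warm ischemia, flush and cold storage form 1 sequence and cannot be told apart in this design, and the labels describe no reperfusion.

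Apoptosis runs along a mitochondrial and a death receptor route. On the mitochondrial route, BAX and BAK1 form pores in the outer mitochondrial membrane and release cytochrome c, which joins APAF1 to activate caspase-9. BCL2, BCL-XL (the long product of BCL2L1) and MCL1 hold BAX and BAK1 in check by binding the BH3 helix of their partners. On the receptor route, FAS and related receptors recruit FADD and caspase-8. Active caspase-8 cleaves further caspases downstream and also BID, whose truncated form carries the signal to mitochondria. Death of tubular cells by this and other forms of cell death is a known feature of ischemic kidney injury, and much of the control over these proteins lies after transcription, by cleavage, binding and degradation.

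The probes are 60-base oligonucleotides, and some of them lie on the stretches of message that encode the interacting parts of the proteins. These are shown because the BCL2 family is defined by such stretches. They are written 5′ to 3′ as the array design gives them. In the first pair, from BID and BAX, capitals mark the bases that a search for the core of a BH3 helix picked out, the helix by which these proteins bind MCL1 and BCL-XL. In the third, from BAK1, capitals mark a match to the core of the BH1 region, part of the groove that receives a BH3 helix. In the fourth, from MCL1, capitals mark the start codon.
BID A_72_P146386: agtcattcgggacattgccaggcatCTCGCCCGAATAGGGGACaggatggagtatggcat
BAX A_72_P367598: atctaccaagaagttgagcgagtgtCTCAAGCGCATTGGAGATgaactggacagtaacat
BAK1 A_72_P306303: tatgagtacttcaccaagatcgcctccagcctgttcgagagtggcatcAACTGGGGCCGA
MCL1 A_72_P518010: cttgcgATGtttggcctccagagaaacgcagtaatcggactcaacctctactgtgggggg
The BH3 search used the letters CTNNNNNNNNNNGGNGAN on both strands and matched 856 of the 43603 probes (1.96%). The BH1 search used AANTGGGGNNGN, also on both strands, and matched 64 probes (0.147%). A match is a description of these letters only.

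The 6 MCL1 probes are not 6 separate readings. Probes A_72_P423944 and A_72_P592644 share 57 of their 60 bases, so the MCL1 probes fall on 5 distinct sites.

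Values below are log2 signals relative to the 75th percentile of their array, and differences are ischemia minus control on that log2 scale. A level applies to its own probe and is not comparable between probes. Signal stood well above background for 52.6% to 61.4% of 43803 spots, none was saturated, and arrays correlated with each other at 0.96 to 0.983. Each of the 3 slides carried 1 ischemia and 1 control array, with every ischemia array at position 3 and every control array at position 4. The place on the slide and the treatment cannot be told apart. The labelled tissue carried proximal tubule markers well above background. By the brightest probe of each gene all 8 tested markers of that segment were lower in ischemia. Of these, 5 had an unadjusted p under 0.05 (limma, none after adjustment), against 2.91% of all 4085 genes lower and 3.75% higher. A second probe of SLC34A1, one of these 5, was higher by 0.35. Their mean level was 4.87 to 4.90 in ischemia kidneys and 5.21 to 5.86 in control kidneys. Leukocyte markers averaged -1.14 to -0.81 in ischemia kidneys and -1.09 to -0.88 in control kidneys. Of the 6 tested, CD163 was higher and CD247 lower at an unadjusted p under 0.05 (limma), differing by 1.42 and -1.33. Among all genes 3.75% were higher and 2.91% lower at that level. The remaining leukocyte markers had overlapping groups and mixed signs. CD3D differed by 0.52, CD3E by -0.03, PTPRC by -0.13 and CD14 by -0.42, with another CD14 probe at 0.34. The 3 tested fibroblast and smooth muscle markers averaged -0.11 to -0.03 in ischemia kidneys and 0.26 to 0.71 in control kidneys. They did not move together. COL1A2 was lower by 1.64 on the log2 scale (unadjusted p = 0.000915, limma), with groups that did not overlap. Its probe read only -3.90 to -3.24 in ischemia kidneys. PDGFRB differed by -0.27, while ACTA2 was higher by 0.28, and by 0.22 to 0.60 over its 7 probes. Of 5 endothelial markers, TEK was higher by 0.78 (unadjusted p = 0.0298, limma), with groups that did not overlap. The others had overlapping groups and differed by 0.20 for CDH5, 0.11 for KDR, 0.09 for PECAM1 and -0.03 for VWF. Other probes of KDR and PECAM1 reached -0.39 and -0.24. The part of cell composition in the results below was not tested. In whole cortex, fewer cells of a type and less RNA per cell cannot be told apart.

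No member probe passed the test of ischemia against control. Of the 14 probes 13 were tested, 8 of them higher and 5 lower in ischemia, and 0 had an adjusted p under 0.05 in limma (lowest adjusted p = 0.773). Over the whole array 0.004% of the 25013 probes tested were called, that is 1 probe. At an unadjusted p under 0.05, 1 member probe was higher and 0 were lower, against 6.3% of all probes in both directions, 2.99% higher and 3.31% lower. Groups did not overlap for 2 member probes, both higher, against 5.89% of all probes higher and 5.02% lower. For all probes tested the median unadjusted 95% interval reached 0.61 to either side of the difference. After adjustment the limit was coarser in simulations on 24993 probes, of which 200 were changed. There 2.8% of 2-fold and 51% of 4-fold changes were called. The simulated noise was normal and independent between arrays, without slide effects, so these shares hold for that setting only.

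Among the inhibitors of death, MCL1, a short-lived protein that binds BAK1 and several BH3-only proteins, was higher in ischemia on all 6 probes, by 0.49 to 0.64 (1.41-fold to 1.56-fold), with adjusted p of 0.773 to 0.888 in limma. The single BCL2L1 probe, which passed the filter on dim probes through the control arrays, differed by -0.30 ± 0.22 (SE, adjusted p = 0.908, limma). The median over the 7 inhibitor probes was 0.57, and 6 of these are MCL1 probes, so this median describes MCL1. The median of all probes tested was -0.04, and 44.2% of all probes had a positive difference.

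**Figure D1:**
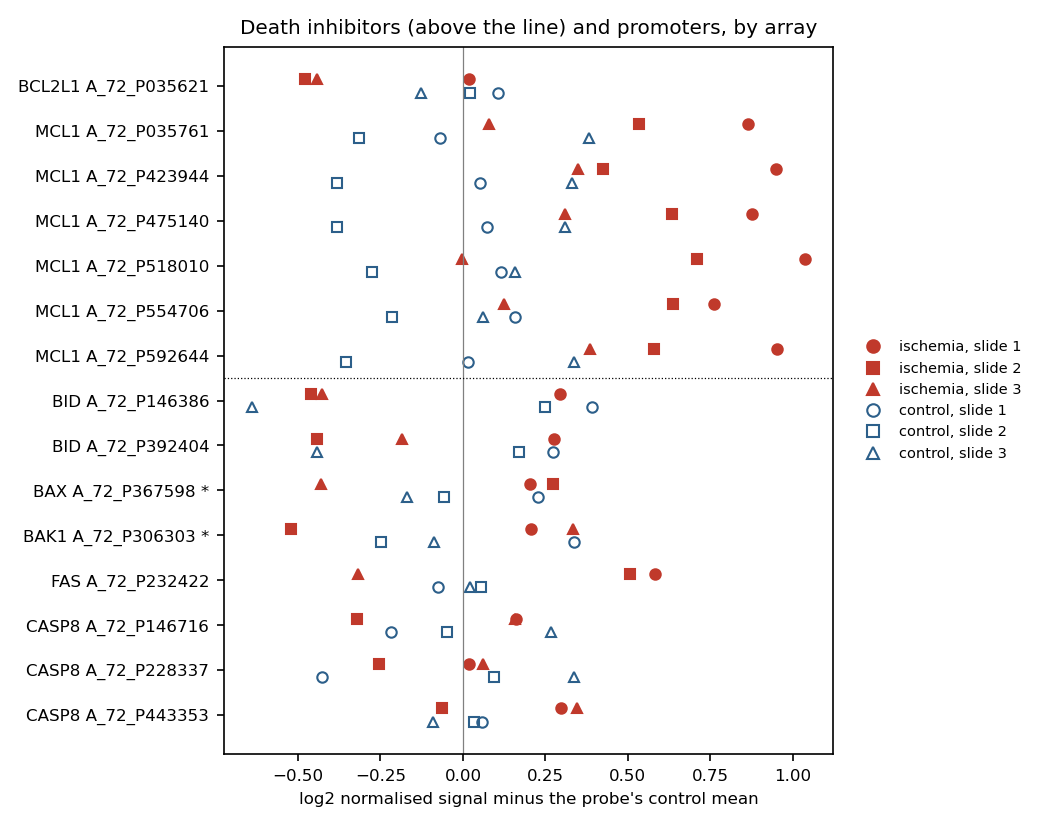
Log2 signal of each tested probe minus its own control mean (x axis), one row per probe, with ischemia kidneys as filled red symbols and control kidneys as open blue symbols, shaped by slide. Inhibitors of death stand above the dotted line and promoters below it, asterisks mark the BAX and BAK1 probes outside the naming rule, and the ischemia kidney of slide 1 is the highest of all kidneys on each of the 6 MCL1 probes.

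The MCL1 probe with the smallest p, A_72_P592644, read 2.00, 2.57 and 2.19 in ischemia kidneys 1 to 3, against 1.63, 1.26 and 1.95 in control kidneys 1 to 3. All ischemia kidneys lay above all control kidneys, although ischemia 1 and control 3 were close. The difference was 0.64 ± 0.26 (SE, 95% interval 0.03 to 1.25), with an unadjusted p of 0.0418 and an adjusted p of 0.773 in limma. Its overlapping partner A_72_P423944 read 2.11, 2.71 and 2.19 in ischemia kidneys, against 1.81, 1.38 and 2.09 in control kidneys. Here too the groups did not overlap, which is no separate reading given the shared bases. That difference was 0.57 ± 0.27 (SE, interval -0.06 to 1.21).

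On the other 4 MCL1 probes the groups overlapped. A_72_P475140 read 0.51, 1.07 and 0.83 in ischemia kidneys, against 0.27, -0.18 and 0.51 in control kidneys, a difference of 0.61 ± 0.26 (SE). Ischemia 1 and control 3 were level on it, and the other ischemia kidneys were above all controls. A_72_P554706 read 4.26, 4.90 and 4.78 in ischemia kidneys, against 4.29, 3.92 and 4.20 in control kidneys, a difference of 0.51 ± 0.24 (SE). Ischemia 1 lay just under control 1. The brightest MCL1 probe, A_72_P035761, read 5.99, 6.78 and 6.44 in ischemia kidneys, against 5.84, 5.60 and 6.29 in control kidneys, a difference of 0.49 ± 0.29 (SE). Control 3 was above ischemia 1 on this probe. A_72_P518010, the probe over the start codon shown above, read -1.63, -0.59 and -0.92 in ischemia kidneys, against -1.51, -1.90 and -1.47 in control kidneys, a difference of 0.58 ± 0.30 (SE). Ischemia 1 lay among the controls there.

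The same kidneys stood at the ends on every MCL1 probe: ischemia 2 was the highest and control 2 the lowest on 6 of 6. The mean of the 6 probes, relative to the control mean, was 0.21, 0.91 and 0.59 in ischemia kidneys 1 to 3, against 0.06, -0.32 and 0.26 in control kidneys 1 to 3. Ischemia 1 lay between the 2 highest controls, and the spread within each group (SD 0.35 in ischemia and 0.30 in control, n = 3 each) was more than 0.5 of the difference of 0.57. Averaging the 6 probes before the fit gave 0.57 ± 0.26 (SE, interval -0.06 to 1.19) and an adjusted p of 0.866 in limma.

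Within slides MCL1 was not uniform. On slide 1 the ischemia array was higher on 6 of 6 probes, by 0.61 to 0.93, and on slide 2 likewise on 6 of 6, by 0.81 to 1.01. On slide 3 it was higher on 3 of 6, with differences from -0.30 to 0.06. These 3 probes, the overlapping pair among them, were thus higher on all 3 slides, as were 13.1% of all probes. With slide as a block the adjusted p of the 6 probes was 0.533 to 0.678 in limma, and 1 of them had an unadjusted p under 0.05, against 3.63% of all probes higher at that level. The median of the inhibitor probes was 0.38 without ischemia 2 and 0.40 without control 2.

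**Figure D2:**
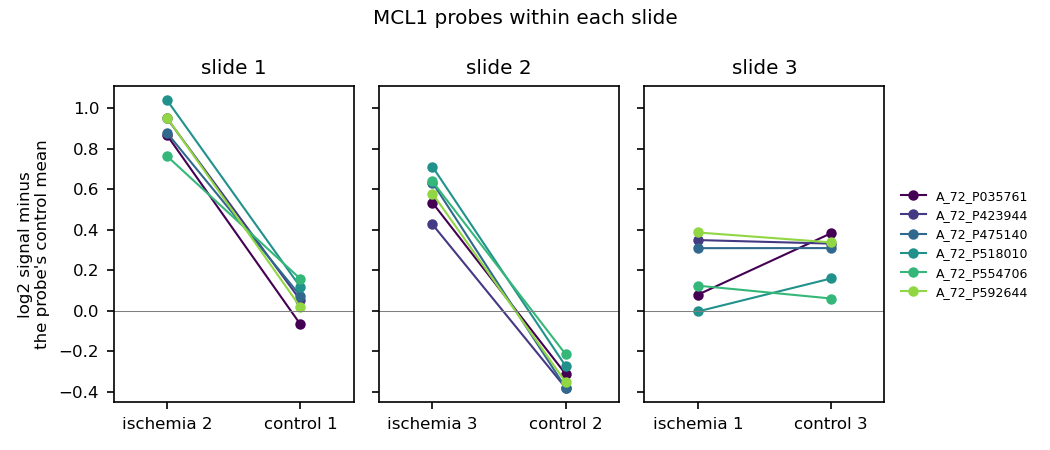
MCL1 within each of the 3 slides, as log2 signal minus the probe's control mean (y axis), with the slide's ischemia kidney at the left and its control kidney at the right of each panel and a line per probe. All 6 lines run downward to the control on slides 1 and 2, while on slide 3 the differences lie between -0.30 and 0.06.

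BCL2L1, whose long product BCL-XL guards the mitochondrial membrane, was dim. Its probe read -4.30, -3.84 and -4.34 in ischemia kidneys, against -3.76, -3.84 and -3.99 in control kidneys. Ischemia 1 and ischemia 3 lay below all controls and ischemia 2 among them. The signal was well above background on 1 of 3 ischemia arrays and on 3 of 3 control arrays. The difference had an interval of -0.81 to 0.20 (n = 3 each) and was 0.0021 in the deposited value table. With levels at background on most ischemia arrays, neither its size nor its sign is settled. Whether the probe tells the long death-inhibiting product from the short death-promoting one was not examined, and the array annotation gives no isoform.

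The promoters of death lay around zero. Of their 7 probes 6 were tested, 2 higher and 4 lower in ischemia, with a median difference of -0.03 against -0.04 for all probes. The lowest adjusted p among them was 0.941 in limma, and 0 had an unadjusted p under 0.05 or groups that did not overlap. The intervals still allow sizeable differences in either direction, so these values do not show that promoters were alike in both groups.

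**Figure D3:**
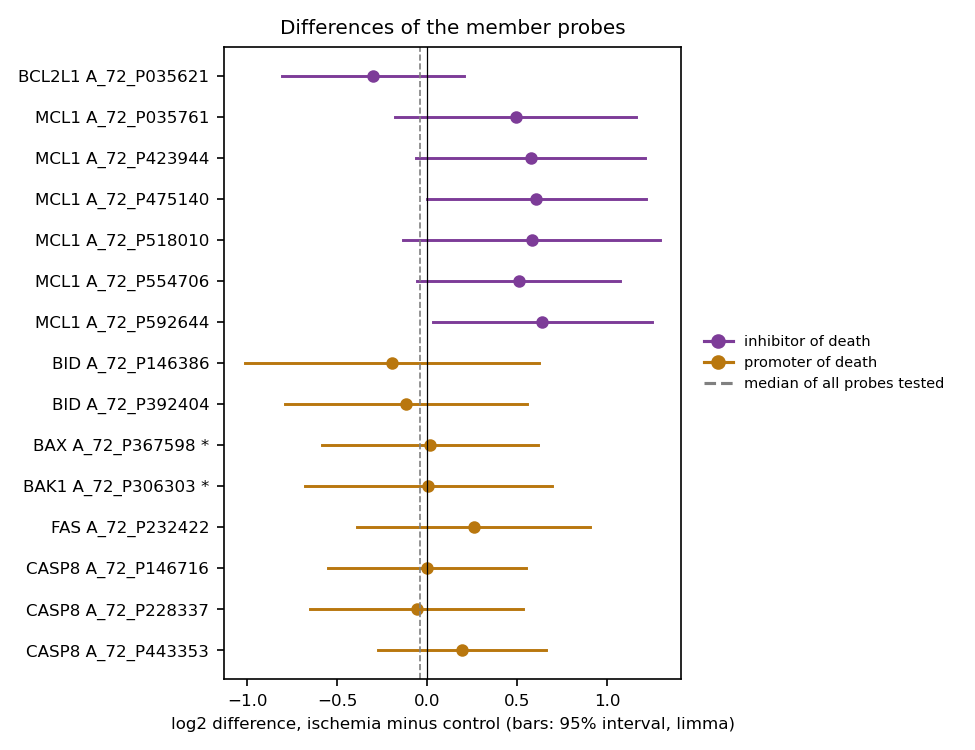
Differences of the 15 tested probes, ischemia minus control on the log2 scale (x axis), with 95% limma intervals as bars, inhibitors of death in purple and promoters in ochre. All 6 MCL1 points lie between 0.49 and 0.64, and only the interval of MCL1 A_72_P592644 leaves out 0; the dashed line is the median of all probes tested.

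BID, the BH3-only protein that links caspase-8 to mitochondria, was read by a pair of probes. A_72_P392404 read 3.93, 4.39 and 3.68 in ischemia kidneys, against 4.39, 4.29 and 3.68 in control kidneys. The groups covered the same range, with ischemia 3 and control 3 at the low end. A_72_P146386, the probe over the BH3 core printed above, read 1.65, 2.37 and 1.61 in ischemia kidneys, against 2.47, 2.32 and 1.43 in control kidneys. Its kidneys had a similar order, with control 3 the lowest and control 1 the highest. The differences were -0.12 ± 0.29 and -0.20 ± 0.35 (SE), and by slide the mean of both probes was -0.05, -0.66 and 0.24.

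BAX and BAK1, the pore-forming effectors, were each read by 1 probe outside the naming rule. BAX read -1.36, -0.73 and -0.66 in ischemia kidneys, against -0.71, -0.99 and -1.10 in control kidneys. Ischemia kidneys held both the lowest and the highest value. The difference was 0.02 ± 0.25 (SE, interval -0.58 to 0.61). BAK1 read -2.67, -2.79 and -3.52 in ischemia kidneys, against -2.66, -3.25 and -3.09 in control kidneys. Only ischemia 3 lay outside the range of the controls, below it, and the difference was 0.01 ± 0.29 (SE, interval -0.68 to 0.69).

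FAS, the receptor for FAS ligand, read -1.86, -0.96 and -1.03 on probe A_72_P232422 in ischemia kidneys, against -1.62, -1.49 and -1.52 in control kidneys. Ischemia 2 and ischemia 3 were above all controls and ischemia 1 below all of them. The spread was therefore wider in ischemia (SD 0.50) than in control kidneys (SD 0.07, n = 3 each), a contrast that was not tested. The difference was 0.26 ± 0.28 (SE, interval -0.39 to 0.91), made up of 0.66 on slide 1, 0.45 on slide 2 and -0.34 on slide 3. It was 0.54 without ischemia 1 (unadjusted p = 0.0366, adjusted p = 0.858 in limma), 0.095 without ischemia 2, 0.13 without ischemia 3 and 0.034 with normexp background correction. The other FAS probe, A_72_P444375, was not well above background on any of the 6 arrays and was not tested.

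CASP8, the initiator caspase of the receptor route, was read by 3 probes that gave different signs. A_72_P443353 read -0.10, -0.15 and -0.51 in ischemia kidneys, against -0.39, -0.41 and -0.54 in control kidneys, a difference of 0.19 ± 0.20 (SE, interval -0.28 to 0.66). Ischemia 1 and ischemia 2 were above all controls on it. A_72_P146716 read 0.08, 0.09 and -0.40 in ischemia kidneys, against -0.29, -0.12 and 0.19 in control kidneys, a difference of -0.00 ± 0.23 (SE). Control 3 was the highest and ischemia 3 the lowest on this probe. A_72_P228337 read -2.56, -2.60 and -2.87 in ischemia kidneys, against -3.05, -2.53 and -2.28 in control kidneys, a difference of -0.06 ± 0.25 (SE). Ischemia kidneys lay inside the control range there, and the mean of the 3 probes differed by 0.04 ± 0.21 (SE, interval -0.46 to 0.55).

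The wider apoptosis machinery was followed in 10 further lists of 65 genes. Of these, 30 had a probe named for them and 28 were tested by their brightest probe. None had an adjusted p under 0.05 in limma, against 0% of all 4085 genes taken the same way, and 18 were higher and 10 lower in ischemia. At an unadjusted p under 0.05, 2 were higher and 0 lower, against 3.75% of all genes higher and 2.91% lower. The median difference was 0.06, against 0.02 for all genes, which were thus also more often higher than lower. No probe was named for an execution substrate, and neither APAF1, the scaffold of the apoptosome, nor BBC3 (PUMA) was analysed here.

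**Figure D4:**
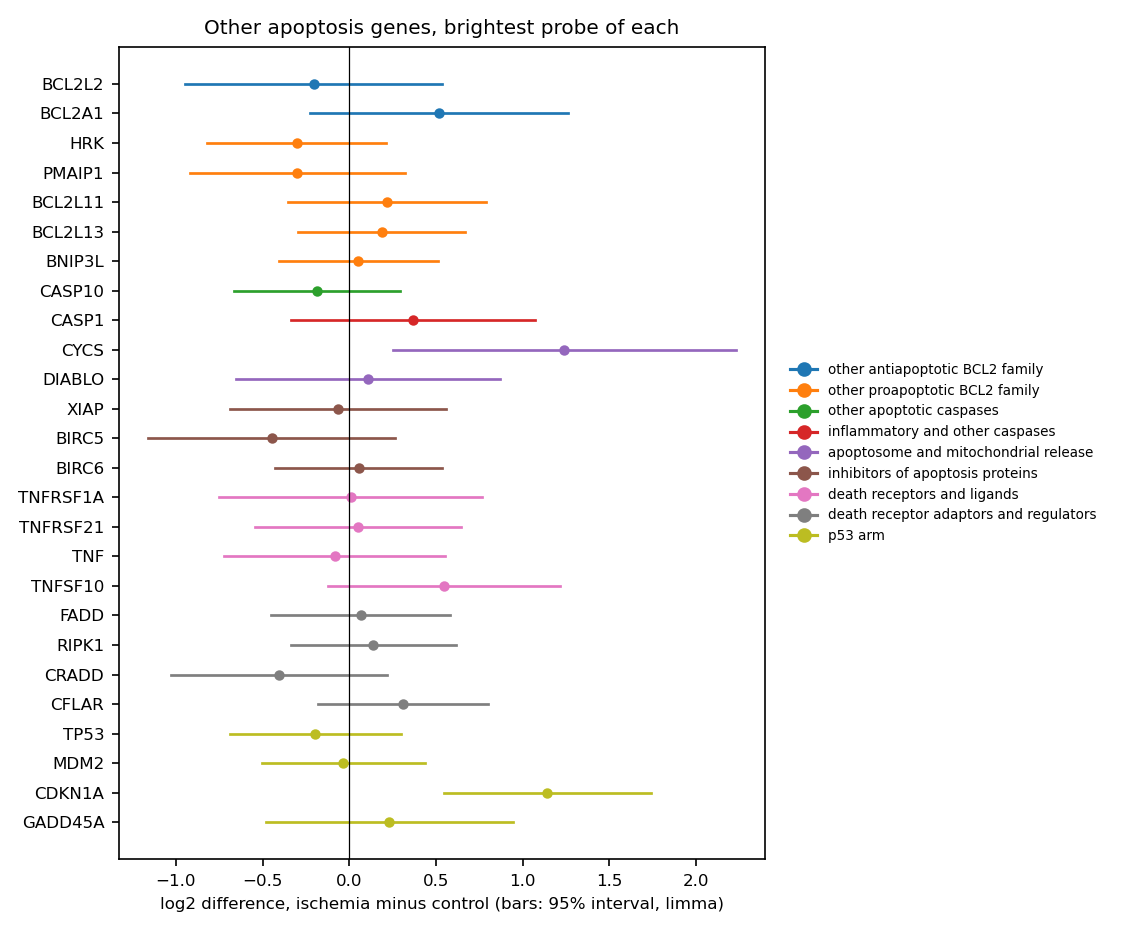
Differences of 26 other apoptosis genes by their brightest probe, ischemia minus control on the log2 scale (x axis), with 95% limma intervals as bars and colours by list. CYCS and CDKN1A are the 2 genes whose intervals leave out 0, both to the right of it.

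Among relatives of the members, BCL2A1, another inhibitor of the BCL2 family, read -2.26, -1.82 and -1.27 in ischemia kidneys, against -2.20, -2.71 and -1.99 in control kidneys. The groups overlapped through ischemia 1, and the difference was 0.52 ± 0.32 (SE). Leaving out ischemia 1 gave 0.76, ischemia 3 gave 0.26 and control 2 gave 0.31, against 0.18 with normexp background correction. The BH3-only genes differed by -0.30 ± 0.22 for HRK, -0.30 ± 0.26 for PMAIP1 (NOXA, a BH3-only partner of MCL1) and 0.22 ± 0.24 for the brightest probe of BCL2L11 (BIM), all SE with n = 3 each and overlapping groups. The other tested BCL2L11 probe went the opposite way, at -0.40.

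CASP1, the inflammasome caspase, read -1.87, -1.11 and -1.10 in ischemia kidneys, against -1.45, -2.14 and -1.60 in control kidneys. Ischemia 2 and ischemia 3 were above all controls and ischemia 1 among them, and the difference was 0.37 ± 0.30 (SE, interval -0.34 to 1.07). It was 0.62 without ischemia 1, 0.25 without ischemia 2, 0.24 without ischemia 3, 0.16 without control 2 and 0.17 with normexp background correction.

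CYCS, the gene of cytochrome c, which also carries electrons in the respiratory chain, was 1 of the 2 apoptosis genes with an unadjusted p under 0.05, beside CDKN1A. Its brightest probe read 6.10, 6.76 and 5.06 in ischemia kidneys, against 4.72, 4.47 and 5.002 in control kidneys. Ischemia 1 and ischemia 2 stood well above all controls, and ischemia 3 was just above control 3. The difference was 1.24 ± 0.42 (SE, interval 0.25 to 2.23), with an unadjusted p of 0.0208 and an adjusted p of 0.719 in limma. It was 0.85 without ischemia 2 and 1.69 without ischemia 3. Its unadjusted p in limma was under 0.05 in 13 of 16 alternatives, among them 0.00687 with slide as a block. It became 0.0637 with control 2 left out, 0.0629 with ischemia 1 left out and 0.0599 with ischemia 2 left out. The lowest adjusted p in any alternative was 0.101 in limma. Of 12 CYCS probes, 11 were higher and 1 lower in ischemia, from -0.22 to 1.32 with a median of 0.98. At an unadjusted p under 0.05 in limma 4 were higher, against 2.99% of all probes. The 12 probes share a gene name and the same 6 kidneys, so they are not 12 separate readings. Ischemia 3 was below both other ischemia kidneys on 12 of 12 probes. The groups were apart on 2 of these 12 overlapping readings, against 5.89% of all probes with ischemia higher. CYCS has near-identical processed copies in other mammals, so what the probes read is uncertain to that extent.

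**Figure D5:**
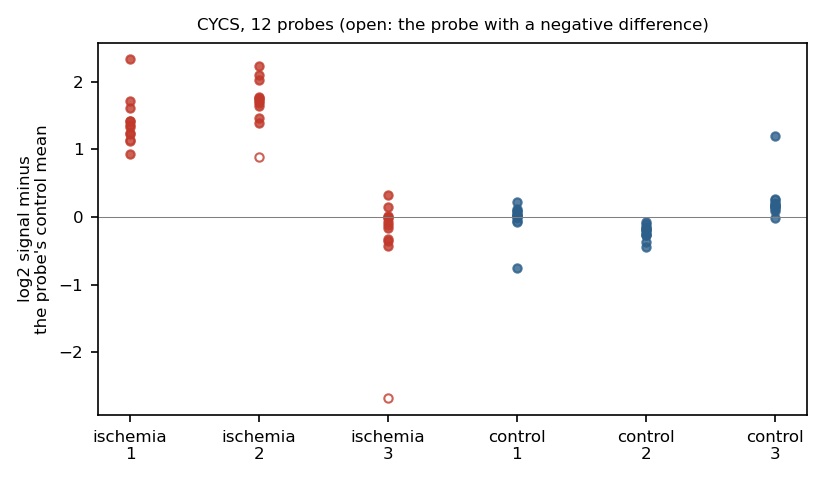
The 12 CYCS probes in each kidney, as log2 signal minus the probe's control mean (y axis), with ischemia kidneys 1 to 3 at the left and control kidneys 1 to 3 at the right, each point 1 probe. Ischemia 1 and 2 lie above the controls on each probe, and ischemia 3 lies below both on all 12; open points are the probe with a difference of -0.22.

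Among inhibitors acting on caspases, BIRC5 (survivin) differed by -0.45 ± 0.30 and XIAP by -0.06 ± 0.26, while CFLAR, the decoy that competes with caspase-8 at death receptors, differed by 0.31 ± 0.21 (SE, n = 3 each). Over 7 probes CFLAR ranged from -0.00 to 0.31. On the receptor side, TNFSF10 (the ligand TRAIL) differed by 0.55 ± 0.29 and TNFRSF1A by 0.01 ± 0.32, and CRADD, an adaptor that brings caspase-2 to its complex, by -0.40 ± 0.26 (SE). Groups overlapped for all of these. CDKN1A, the p53 target that encodes the cell cycle inhibitor p21, read 2.17, 2.69 and 2.85 in ischemia kidneys, against 1.62, 1.14 and 1.53 in control kidneys, a difference of 1.14 ± 0.25 (SE, adjusted p = 0.496 in limma).

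The genes whose 6 array values most resembled those of MCL1 A_72_P592644 were IFIT2, CAMK2D and LACC1, out of 4083 genes ranked by Pearson r. Their r was 0.985, 0.977 and 0.973 over the 6 arrays, with a Spearman rho of 1 each. This is a ranking over 6 arrays that include both groups, and 6 genes had an r over 0.95. IFIT2, CAMK2D and LACC1 themselves differed by 0.77 ± 0.28, 0.38 ± 0.20 and 0.28 ± 0.19 (SE). The positive sign was fixed by this choice, since a rho of 1 repeats the kidney order of the MCL1 probe.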

How the data were processed

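Cy3-labelled cortical RNA of 3 ischemia and 3 control kidneys was hybridised to 1 array each. The deposited scanner files hold spot intensity, background-subtracted and detrended by Agilent Feature Extraction, per the file headers, together with flags for background and outliers. The headers of all 6 files give version 10.10.1.1 of that program, whereas 11.5.1.1, limma and R 2.15.2 are named in the submitters' processing notes. A value table from the authors, in log2 units and of unstated normalization, served only as an alternative.

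The processed signal was scaled to the 75th percentile of its array and taken to log2, without control and outlier spots. Probes well above background on at least 3 of 6 arrays, with a value on at least 5, were tested (25013 of 43603). The 2 groups were tested two-sided by lmFit and eBayes of limma 3.58.1 (R 4.3.3), with Benjamini-Hochberg adjustment across all probes. An exact permutation test of 3 against 3 cannot give a p under 0.1. Labels state that kidneys came from different pigs. The 5 simulations on 24993 probes changed 200 of them and drew independent normal noise at each probe's own spread within groups. In these, 2.8% of 2-fold and 51% of 4-fold changes were recovered with 3.2 false calls on average.

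Symbols came from the gene name column, and for other lists also from accessions, gene numbers and full names in descriptions; 31659 probes stayed unnamed. The text names every member, the gene of smallest p in each other apoptosis list by its brightest probe (the rule allowed up to 3), and 9 genes fixed by name where tested, of which some are not reported here. CD163, CD247, CD3D, CD3E, PTPRC, CD14, COL1A2, PDGFRB, ACTA2, TEK, CDH5, KDR, PECAM1, VWF and SLC34A1 were named after their values were seen. Members and lists were chosen with earlier results of these data known. Alternatives covered normalization, background, filters, slide and sample number as blocks, weights, variance trend, probe averaging and each array left out.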

Additional observations from a re-analysis of the deposited data

How the results depend on the processing

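Member probes and other apoptosis genes called stayed at 0 under every alternative run, with lowest adjusted p of 0.117 and 0.0721 in limma with array weights. The inhibitor median ranged from 0.38 to 0.80, and the promoter median from -0.09 to 0.16. The median of all probes was 0.11 with median centring and 0.14 in the deposited table, which holds 6 member probes. MCL1 A_72_P475140 differed by 0.81 in that table (unadjusted p = 0.00729, adjusted p = 0.262, limma). With array weights the 6 MCL1 probes differed by 0.67 to 0.94 (adjusted p of 0.117 to 0.181, limma). Without ischemia 2 they differed by 0.31 to 0.48. Of all probes, 1 was called in the setting reported, 11 with median centring, 21 with array weights, 3 each with normexp correction, the deposited table, the filter on all 6 arrays and the intensity trend, 0 with quantile normalization, with no filter and with slide as a block, and 0 to 1 with each array left out. The cause was not tested.

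With the sample number as a replicate block, 0 probes and 0 members were called. Arrays of the same number did not deviate together (correlations of -0.348, -0.168 and -0.05). Those of the same slide correlated at 0.342, 0.102 and 0.334. Deviations from a group mean cancel out within the group, so positive values for some pairs lower the others. These correlations thus cannot decide whether the numbers pair the kidneys, which the labels place in different pigs.

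Several values turned sign, most of them near zero but also BCL2L1, HRK and PMAIP1, each at -0.30 in the setting reported. With median centring these were BID A_72_P392404 at 0.032, CASP8 A_72_P228337 at 0.090, CASP8 A_72_P146716 at 0.15 and XIAP at 0.085. Quantile normalization gave 0.063 for CASP8 A_72_P228337 and -0.0067 for TNFRSF1A. Normexp gave 0.0062 for CASP8 A_72_P146716, -0.017 for BAX and -0.10 for BAK1. The deposited table gave 0.0021 for BCL2L1, 0.16 and 0.026 for BID A_72_P392404 and A_72_P146386, 0.054 for HRK, 0.0097 for PMAIP1 and 0.21 for XIAP. Array weights gave 0.073 for CASP8 A_72_P146716 and 0.056 for XIAP. With each array left out, ranges were -0.34 to 0.045 for BID A_72_P392404, -0.27 to 0.11 for CASP8 A_72_P228337, -0.11 to 0.16 for CASP8 A_72_P146716, -0.11 to 0.24 for BAX, -0.16 to 0.27 for BAK1, -0.29 to 0.15 for XIAP and -0.23 to 0.31 for TNFRSF1A. Signal over background limits BCL2L1 and the untested FAS probe.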
